A study of Mus musculus with 4 samples.

Results

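The transcripts of 10 cytosolic heat shock chaperones and their partners were followed in mouse renal cortex: Hspa1a, Hspa1b, Hspb1, Hsph1, Dnajb1, Hspa8, Hsp90aa1, Bag3, Chordc1 and Cryab. They were taken as the probes that the platform annotation assigns to these symbols, which gave 1 probe for each of the 10 genes among 9900 genes and unnamed probes on the array. Of the 10, 9 gave a usable spot on all 4 arrays, and the spot of Hsph1 failed on shape on DM-WT. The genes were picked because their levels differed between these same arrays, so their own differences are given as a description, without a test.

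The arrays came from male C57BL/6J mice, all injected at 8 weeks of age and killed 12 weeks later at 20 weeks. DM-KO mice lacked ICAM-1 (ICAM-1-/-), an adhesion molecule that lets leukocytes leave the blood, and were made diabetic with 200 mg/kg of intraperitoneal streptozotocin, a beta cell toxin. ND-KO mice were ICAM-1-/- and received only the citrate buffer, DM-WT mice were ICAM-1+/+ and received streptozotocin, and ND-WT mice were ICAM-1+/+ and received buffer. Diabetic mice were kept in the study when blood glucose was above 16 mmol/L at 7 days. The labels name 5 mice in each group but give 1 array for each, and whether its RNA was pooled is not stated, so no difference has a replicate check. Icam1 itself was not analysed here, so its transcript did not check the genotype labels.

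Cytosolic chaperones hold unfolded proteins and help them refold. Members of the Hsp70 family bind and release such proteins in an ATP-driven cycle that J-domain proteins start and nucleotide exchange factors close, Hsp90 acts on more mature proteins, and small heat shock proteins hold aggregation-prone ones. Under heat, oxidants or other protein damage, heat shock factor 1 forms a trimer and binds repeats of the bases GAA that face each other in promoters. In the kidney, inducible Hsp70 and the small heat shock proteins are known to increase after ischaemic and toxic tubule injury.

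The start regions are shown because heat shock factor 1 acts there and because Hspa1a and Hspa1b are near-identical. RefSeq start windows on GRCm38.p6, running over 250 bases before and 50 bases after the start, were at hand for 7 of the 10 genes, with Hspa8, Hsp90aa1 and Cryab not among them. The letters GAANNTTC or TTCNNGAA, each its own reverse complement and so read on both strands at once, were found for 6 of the 7 genes, the exception being Dnajb1. The same letters stood in 15.1% of 32851 windows of all genes. The longer run of 3 facing units, GAANNTTCNNGAA or its reverse complement TTCNNGAANNTTC, in which such pairs overlap, was found for Hsph1 and Chordc1 and in 0.603% of all windows. A match of letters does not show that the factor binds there. Capitals mark the matched letters in these stretches, written 5′ to 3′ on the strand of the gene. The first pair lies directly before the start of each gene, at chr17:34959239-34959488 (minus strand) for Hspa1b and chr17:34972157-34972406 (minus strand) for Hspa1a. The others lie at chr5:135887762-135887869 (plus strand) for Hspb1, chr5:149636337-149636409 and chr5:149636288-149636300 (minus strand) for Hsph1, and chr9:18292263-18292285 (plus strand) for Chordc1.
Hspa1b: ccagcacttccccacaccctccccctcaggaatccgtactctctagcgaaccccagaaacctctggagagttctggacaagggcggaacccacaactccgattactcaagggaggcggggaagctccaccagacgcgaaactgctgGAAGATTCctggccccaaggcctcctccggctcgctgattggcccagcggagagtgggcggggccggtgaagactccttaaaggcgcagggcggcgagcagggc
Hspa1a: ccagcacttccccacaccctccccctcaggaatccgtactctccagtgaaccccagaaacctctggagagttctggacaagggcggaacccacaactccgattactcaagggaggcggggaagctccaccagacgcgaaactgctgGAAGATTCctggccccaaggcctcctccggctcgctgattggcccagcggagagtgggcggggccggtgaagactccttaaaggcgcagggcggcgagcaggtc
Hspb1: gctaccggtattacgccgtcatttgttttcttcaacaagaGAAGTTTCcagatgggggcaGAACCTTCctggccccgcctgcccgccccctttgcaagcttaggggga
Hsph1, before the start: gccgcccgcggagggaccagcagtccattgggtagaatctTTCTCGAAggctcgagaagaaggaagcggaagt
Hsph1, after the start: TTCTGGAAAGTTC
Chordc1: GAACGTTCGGGAAAATTCCTGAA

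The Hspa1a and Hspa1b stretches were identical at 247 of 250 bases (98.8%). They differed by T44C, C47T and G249T, with the Hspa1b base first and positions counted from 1 at the 5′ end of the printed bases. The facing pair GAAGATTC stood at -104 to -97 from the start in both. Hspb1 held a pair at -117 to -110 and another at -97 to -90, a similar distance before its start. In Chordc1 the run of facing units crosses the start, at -4 to 19. The coding transcripts of Hspa1a and Hspa1b are also nearly alike, so each of their 2 probes may hold signal from both genes, and their values are not independent of each other.

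On each array 62.8% to 66.2% of 10032 gene probes were usable, the fewest on DM-WT, and median background-subtracted intensity was 46.3 on DM-KO, 44.3 on ND-KO, 37.7 on DM-WT and 43.5 on ND-WT. For spiked bacterial transcripts that median was 505.3 on DM-KO, 488.8 on ND-KO, 241.2 on DM-WT and 417.6 on ND-WT, so DM-WT stood apart in that measure. Repeat spots of 1 control probe on the same array had a median SD of 0.11 on the log2 scale. Times the square root of 2 this gives 0.156, which is 1 SD of a difference between 2 spots and is called the repeat-spot spread below. Spot noise alone can exceed it, so it serves as a yardstick and not as a test. This spread covers neither separate labelling nor separate mice. Probes for proximal tubule genes, which define the cortex, were measured for 12 of 12 genes on every array, while of 5 podocyte markers Nphs1, Podxl and Cd2ap were not above background on any and Wt1 was measured only on ND-WT. The fifth, Cdkn1c, was measured on all 4 arrays and, like most of the chaperone genes, was lower in KO, at 6.83 on DM-KO, 6.64 on ND-KO, 7.15 on DM-WT and 7.16 on ND-WT on the log2 scale described next; its part in the results was not tested. Levels below are log2 intensities after background correction and quantile normalization, and only values of the same probe are set against each other.

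Transcripts of inducible Hsp70 were lowest on DM-KO and highest on DM-WT. Hspa1a, which encodes inducible Hsp70, had log2 levels of 7.27 on DM-KO, 8.08 on ND-KO, 9.64 on DM-WT and 9.03 on ND-WT. Hspa1b, the neighbouring copy, had 9.10 on DM-KO, 10.04 on ND-KO, 11.28 on DM-WT and 10.70 on ND-WT. For both genes the order was DM-WT, ND-WT, ND-KO and DM-KO, with each step larger than the repeat-spot spread, and both KO arrays lay below both WT arrays. On the scanner's own scale, Hspa1a had a background-subtracted intensity of 111.3 on DM-KO, 231.0 on ND-KO, 626.4 on DM-WT and 502.9 on ND-WT, and Hspa1b had 521.4, 1058.5, 2149.1 and 1771.9 on the same arrays. The negative control spots reached 7.15 to 9.49 at their 95th percentile, so both probes were well above background everywhere.

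Hspa8, the constitutive Hsp70 of the cytosol, was among the brightest spots and varied less. Its log2 level was 12.02 on DM-KO, 12.18 on ND-KO, 12.58 on DM-WT and 12.58 on ND-WT. The KO arrays lay below the WT arrays and were about 1 repeat-spot spread apart. The WT arrays were equal only after quantile normalization: DM-WT minus ND-WT was -0.38 with the arrays scaled to equal medians and -0.27 in the series value table, which holds the authors' own scaled intensities. The KO arrays were farther apart in these settings too, with DM-KO minus ND-KO at -0.29 with median scaling and -0.32 in the series value table.

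The partners of Hsp70 followed the same split between genotypes. Dnajb1, a J-domain protein that starts the Hsp70 cycle, had log2 levels of 6.80 on DM-KO, 7.19 on ND-KO, 7.76 on DM-WT and 7.75 on ND-WT. Hsph1, an Hsp110 that exchanges the nucleotide of Hsp70, had 6.98 on DM-KO, 7.13 on ND-KO and 7.99 on ND-WT. Bag3, another exchange factor that also links Hsp70 to autophagy, had 6.33 on DM-KO, 6.43 on ND-KO, 6.74 on DM-WT and 6.70 on ND-WT. The WT arrays were within the repeat-spot spread of each other for Dnajb1 and Bag3, and DM-KO lay below ND-KO beyond that spread for Dnajb1 but not for Bag3. For Bag3 this depended on the processing. DM-KO minus ND-KO was -0.17 with a background offset of 16 in place of 50 and -0.28 in the series value table, both past that spread. With its failed spot kept, Hsph1 differed by -0.92 between DM-KO and DM-WT and by -0.10 between DM-WT and ND-WT on the log2 scale. Bag3 was the dimmest, with background-subtracted intensities of 33.3 on DM-KO, 38.7 on ND-KO, 49.5 on DM-WT and 55.4 on ND-WT.

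On the Hsp90 side, Hsp90aa1, the stress-inducible cytosolic Hsp90, had log2 levels of 9.70 on DM-KO, 9.75 on ND-KO, 10.44 on DM-WT and 10.24 on ND-WT. Chordc1, a cochaperone that binds Hsp90, had 8.60 on DM-KO, 8.75 on ND-KO, 9.29 on DM-WT and 9.40 on ND-WT. In both genes the KO arrays were within the repeat-spot spread of each other and below the WT arrays. For Chordc1 the KO arrays were only just within it, with DM-KO minus ND-KO at -0.15. That difference was -0.16 with a background offset of 16 or with median scaling, and -0.2 in the series value table. The WT arrays differed by more than that spread for Hsp90aa1, but DM-WT minus ND-WT was -0.02 with median scaling and 0.09 in the series value table. They differed by less for Chordc1, for which DM-WT minus ND-WT was -0.31 with median scaling.

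The small heat shock proteins gave 2 other patterns. Hspb1, a small heat shock protein that binds actin filaments and unfolded proteins, had log2 levels of 7.31 on DM-KO, 7.16 on ND-KO, 8.47 on DM-WT and 7.64 on ND-WT, so that DM-WT stood alone at the top. Cryab, the alpha-B crystallin of lens, muscle and renal medulla, had 8.56 on DM-KO, 8.11 on ND-KO, 8.67 on DM-WT and 8.24 on ND-WT. Cryab split by diabetes: both diabetic arrays lay above both nondiabetic arrays and the genotypes overlapped.

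**Figure D1:**
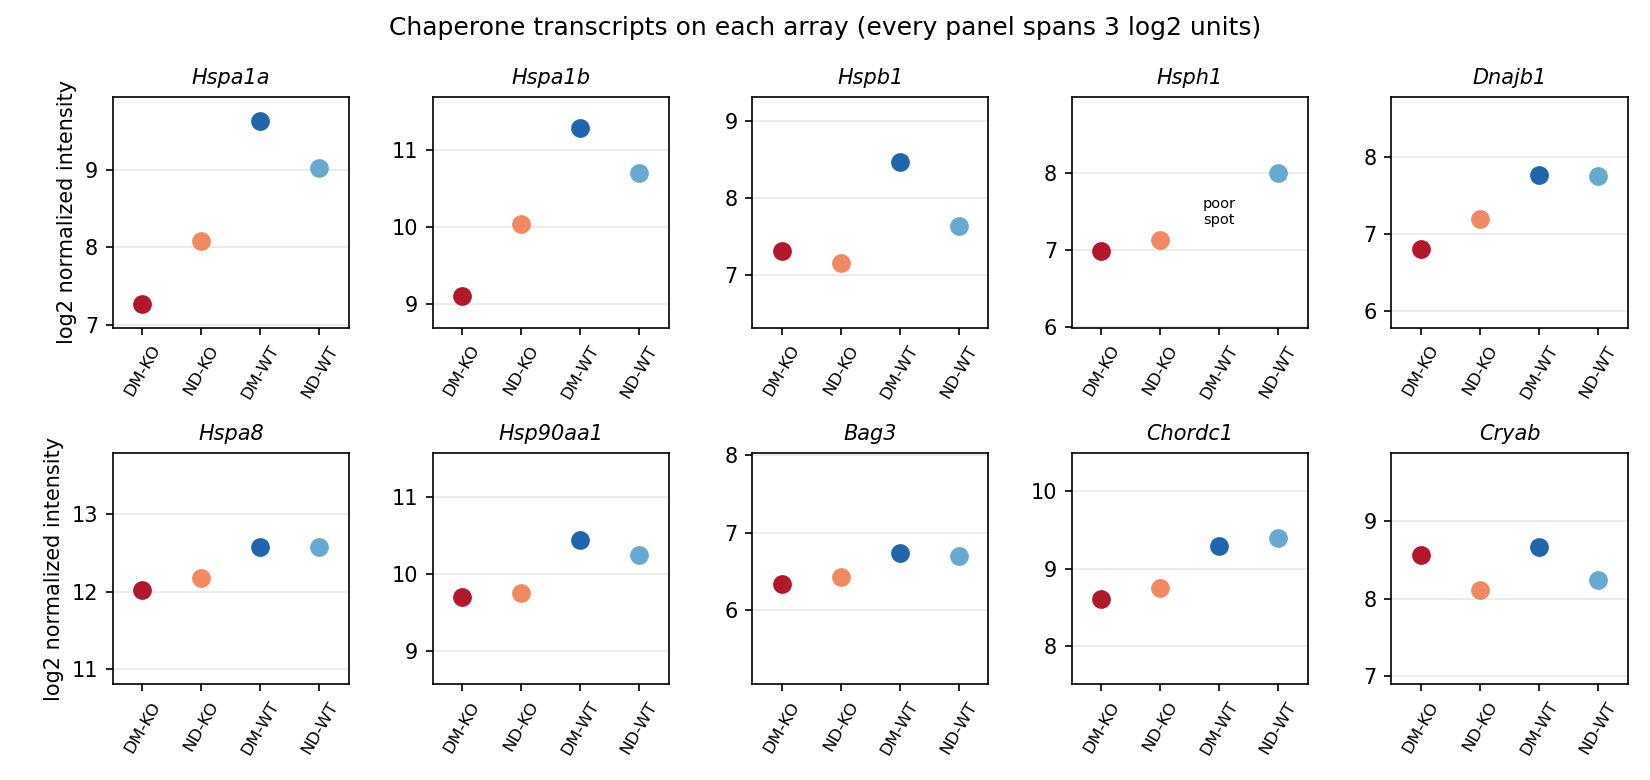
Each panel plots 1 gene, with the array on the horizontal axis and its log2 normalized intensity on the vertical axis, and each point is 1 array. Hspa1a runs between 7.27 on DM-KO and 9.64 on DM-WT, the KO points lie below the WT points in every panel with 4 points except that of Cryab, and Hsph1 has no point on DM-WT because the spot failed.

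The comparison of DM-KO with DM-WT asked how the diabetic cortex differs without ICAM-1. All 9 genes measured on both arrays were lower on DM-KO (52.7% of 6111 genes were), with a median log2 difference of -0.74, beside -0.01 over those genes, although Cryab stood at 0.05 with the arrays scaled to equal medians. At least 1.5-fold lower were 6 of the 9 (1.06% of genes were), and 0 were that much higher (0.769% of genes). Hspa1a was 5.16-fold lower (log2 difference -2.37) and Hspa1b 4.56-fold lower (-2.19), the second and the third lowest of all genes in this comparison. Hspb1 was 2.23-fold lower, Dnajb1 1.94-fold, Hsp90aa1 1.67-fold and Chordc1 1.61-fold. Hspa8 (1.47-fold lower), Bag3 (1.33-fold lower) and Cryab (1.07-fold lower) were under 1.5-fold here. Bag3 passed it at -0.65 with a background offset of 16 in place of 50, and both Bag3 (-0.87) and Hspa8 (-0.59) passed it in the series value table, while Chordc1 did not at -0.52 with median scaling, so the count was 7, 8 and 5 in these settings.

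The nondiabetic arrays gave the same contrast without streptozotocin. Between ND-KO and ND-WT all 10 genes were lower on ND-KO (49.3% of 6258 genes were), with a median log2 difference of -0.52, beside 0.00 over those genes. At least 1.5-fold lower were 4 (0.447% of genes) and 0 were higher by as much (0.176% of genes). Hspa1a was 1.94-fold lower (log2 difference -0.95), Hsph1 1.82-fold (-0.86), Hspa1b 1.57-fold (-0.65) and Chordc1 1.57-fold (-0.65). Dnajb1 at -0.56, Hsp90aa1 at -0.48, Hspb1 at -0.48 and Hspa8 at -0.40 lay outside the central 95% of genes, which ran between -0.29 and 0.29, while Bag3 at -0.27 and Cryab at -0.13 lay inside it.

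The KO pair and the WT pair of arrays thus did not overlap, KO being lower, for 8 of the 9 genes measured on all arrays, where 18.8% of 5914 genes showed the same order and 16.6% the reverse order. Cryab was the exception, and it was the 1 gene of the 9 with both diabetic arrays above both nondiabetic arrays (19.4% of genes). None had both diabetic arrays below both nondiabetic arrays (21.4% of genes). Hspa1a, Hspa1b and Chordc1 were at least 1.5-fold lower in KO both with and without diabetes, as were 0.254% of the 5914 genes. Because the genes were picked on these arrays, these shares are given as background and nothing is read from them.

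**Figure D2:**
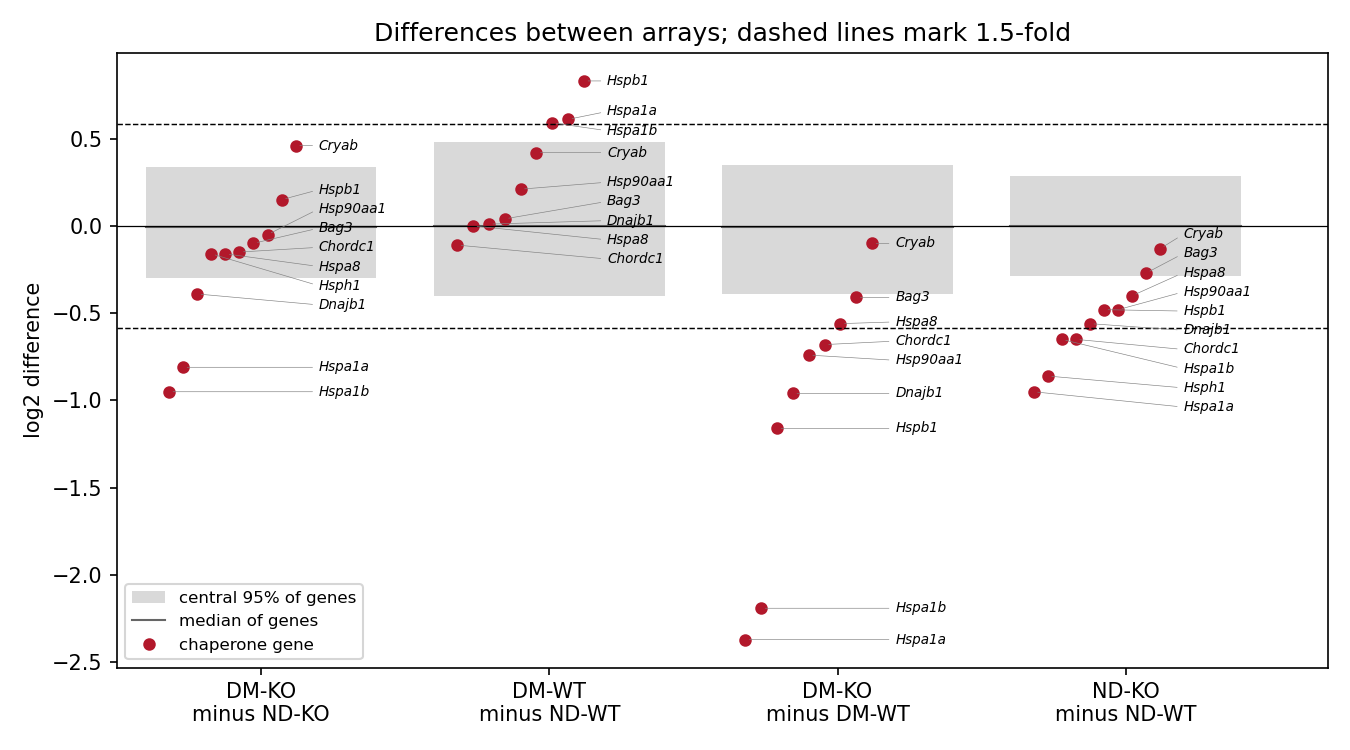
Points are the chaperone genes in each of the 4 comparisons, on a log2 scale where negative values mean lower in the array named first. Grey bands hold the central 95% of genes measured on all 4 arrays and dashed lines mark 1.5-fold. Hspa1a at -2.37 and Hspa1b at -2.19 lie far below the other points in DM-KO minus DM-WT.

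Diabetes went with opposite directions of inducible Hsp70 in the 2 genotypes. On DM-KO, against ND-KO, Hspa1b was 1.93-fold lower (log2 difference -0.95) and Hspa1a 1.75-fold lower (-0.81), and these were the only 2 of 10 genes to pass 1.5-fold downward (0.505% of 6339 genes did). None passed it upward (0.536% of genes). In the series value table Dnajb1 passed it downward as well, at -0.62, so that the count was 3. Dnajb1 at -0.39 and Cryab at 0.46 lay outside the central 95% of genes, between -0.30 and 0.34, and the other 6 lay inside, at -0.16 to 0.15. Of the 10, 8 were below 0 (52.1% of genes were), and their median was -0.15, beside -0.01 over all genes.

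On DM-WT, against ND-WT, Hspb1 was 1.78-fold higher (log2 difference 0.83), Hspa1a 1.52-fold higher (0.61) and Hspa1b just past 1.5-fold higher (0.59). These were the 3 of 9 genes that passed 1.5-fold upward (1.75% of 6055 genes did), and 0 passed it downward (0.875% of genes). Cryab at 0.42 and Hsp90aa1 at 0.21 were inside the central 95% of genes, between -0.40 and 0.48, although Hsp90aa1 stood at -0.02 when the arrays were scaled to equal medians instead. Bag3 at 0.04, Dnajb1 at 0.01, Hspa8 at 0.00 and Chordc1 at -0.11 were within the repeat-spot spread, but Hspa8 at -0.38 and Chordc1 at -0.31 were outside it with median scaling, as they were in the series value table at -0.27 and -0.23. Of the 9, 2 were below 0 (49.9% of genes were), Chordc1 and, at 0.00 after rounding, Hspa8. The median of the 9 was 0.21, beside 0.00 over all genes, and it was 0.01 under median scaling, under which Hspb1 alone passed 1.5-fold.

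The diabetes difference in KO minus that in WT was -1.53 for Hspa1b and -1.41 for Hspa1a on the log2 scale, the third and the eighth lowest of 5914 genes. It was -0.68 for Hspb1, -0.40 for Dnajb1 and -0.25 for Hsp90aa1. For Hspa8 (-0.16), Bag3 (-0.14), Chordc1 (-0.03) and Cryab (0.03) it was closer to the median of all genes, -0.01. With 4 arrays no degree of freedom is left to test it. The 4 comparisons share arrays, so that a value peculiar to 1 array enters 2 of them.

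**Figure D3:**
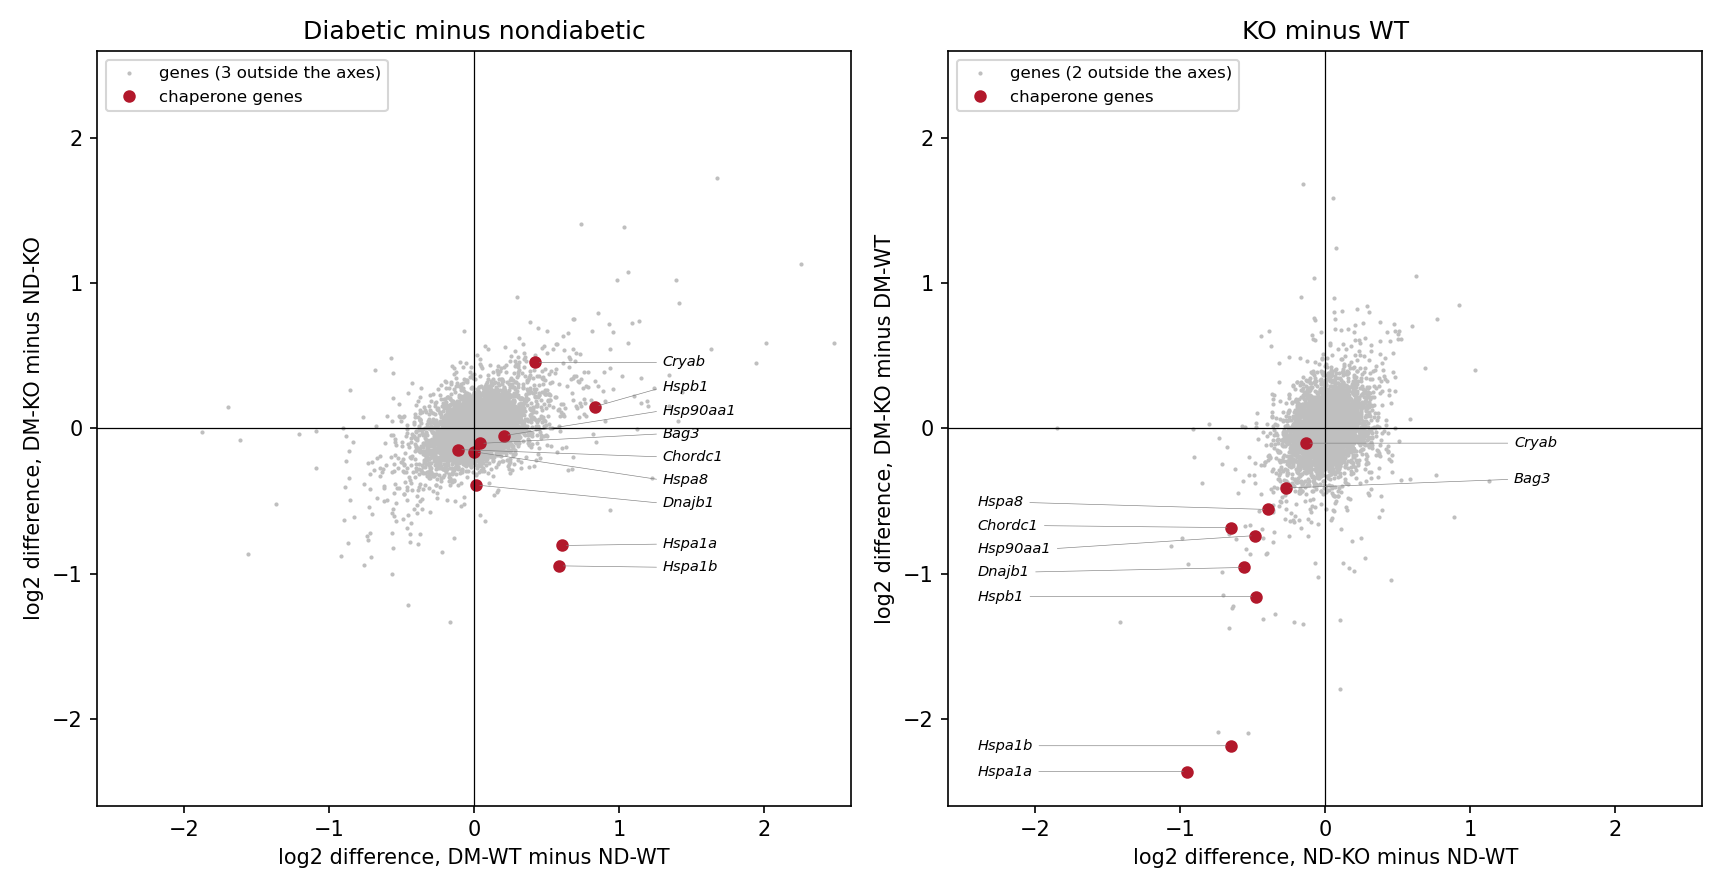
The left panel sets the diabetes difference in KO (vertical) against that in WT (horizontal) and the right panel sets the KO minus WT difference with diabetes (vertical) against that without (horizontal), all on log2 scales. Grey points are genes measured on all 4 arrays. On the left, Hspa1a (0.61 and -0.81) and Hspa1b (0.59 and -0.95) lie to the lower right, and on the right all 9 chaperone genes lie below 0 on both axes, Cryab only just at -0.10 and above 0 under median scaling.

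Other genes of protein folding were followed in lists that hold none of the 10. Among other cytosolic chaperones and cochaperones, 27 genes were measured on all arrays, and both KO arrays lay below both WT arrays for 13 (18.8% of all genes showed this order) and above them for 2 (16.6%). The median log2 difference was -0.05 between DM-KO and DM-WT, with 1 gene at least 1.5-fold lower (1.06% of all genes), and -0.12 between ND-KO and ND-WT, with 0 (0.447%). That gene was Dnaja1, a J-domain partner of Hsp70, with log2 levels of 10.98 on DM-KO, 11.24 on ND-KO, 11.81 on DM-WT and 11.78 on ND-WT. Fkbp5, a cochaperone of Hsp90 in steroid receptor complexes, had 6.70 on DM-KO, 7.01 on ND-KO, 7.23 on DM-WT and 7.37 on ND-WT. Both genes were lower on both KO arrays than on both WT arrays, with DM-KO lowest. Hspb8, a small heat shock protein that works with Bag3, had 7.02 on DM-WT, against 6.42 on ND-WT, which is 1.52-fold higher.

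Chaperones of other compartments were mixed. For 20 genes of the endoplasmic reticulum list, whose products fold secreted proteins or answer their misfolding, the median log2 difference was -0.21 between DM-KO and DM-WT, with 4 genes at least 1.5-fold lower (1.06% of all genes), and -0.30 between ND-KO and ND-WT, with 5 lower (0.447%). Both KO arrays lay below both WT arrays for 11 of these 20 (18.8% of all genes). Ddit3, a transcription factor of lasting stress in that compartment, had log2 levels of 7.41 on DM-KO, 7.24 on ND-KO, 8.64 on DM-WT and 7.88 on ND-WT. Its log2 difference was -1.22 between DM-KO and DM-WT and -0.64 between ND-KO and ND-WT, and it was 1.70-fold higher with diabetes in WT, with a log2 difference of 0.17 in KO. Manf, a secreted stress protein of that compartment, had log2 levels of 8.94 on DM-KO, 8.65 on ND-KO, 9.75 on DM-WT and 9.71 on ND-WT. Herpud1, which serves in degradation there, had 9.44 on DM-KO, 9.48 on ND-KO, 10.43 on DM-WT and 10.19 on ND-WT, so the KO arrays lay together and below the WT arrays. Hspa5, the Hsp70 of that compartment, had 10.27 on DM-KO, 9.92 on ND-KO, 10.65 on DM-WT and 10.77 on ND-WT, so diabetes in KO went with more of it and with less of Hspa1a and Hspa1b.

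For 10 chaperonin and prefoldin subunits measured on DM-KO and DM-WT, which fold actin and tubulin, the median was 0.05, and for 11 measured on ND-KO and ND-WT it was -0.11. For mitochondrial chaperones and proteases the medians were 0.03 over 10 genes between DM-KO and DM-WT and -0.03 over 12 between ND-KO and ND-WT, and neither list had a gene 1.5-fold different in either contrast among those measured on both arrays. Hspe1, the partner of mitochondrial Hsp60, fell outside that count because it was not above background on DM-KO: its log2 level was 5.71 there, against 7.75 on ND-KO, 7.73 on DM-WT and 7.65 on ND-WT. Hspd1, the mitochondrial Hsp60 itself, had 10.79 on DM-KO, 10.94 on ND-KO, 10.78 on DM-WT and 10.97 on ND-WT. The heat shock factors Hsf2 and Hsf4 were not above background on any array, and Hsf1 was not analysed here. In the lists of proteotoxic, immediate early and osmotic response genes, Hmox1, an oxidant-induced haem oxygenase, was higher by 1.55-fold and Ccn1, a matricellular protein, by 1.60-fold when DM-WT was set against ND-WT, while Akr1b3, the aldose reductase that makes sorbitol, was 1.61-fold lower. On DM-KO, against ND-KO, their log2 differences were 0.14 for Hmox1, -0.28 for Ccn1 and 0.40 for Akr1b3. The immediate early gene Jun was left out of the KO minus WT medians because it was not above background on either WT array. Its log2 level was 7.15 on DM-KO and 7.51 on ND-KO, against 5.78 on DM-WT and 5.77 on ND-WT, so it was higher in KO. The measured genes of that list did not follow Jun. Between DM-KO and DM-WT their median was -0.29, with 11 of 13 below 0 (52.7% of all genes were). Between ND-KO and ND-WT it was -0.03, with 7 of 12 below 0 (49.3%).

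Over these 8 lists 103 genes entered an additive limma fit of diabetes and genotype on the 4 arrays, and 0 passed an adjusted p of 0.05 for either factor. In the same fit 3 of 6512 genes passed for genotype (0.0461%) and 1 passed for diabetes (0.0154%). At an unadjusted p under 0.05 there were 30 of the 103 for genotype and 15 for diabetes, beside 592 and 832 of all genes tested. With the spots in columns 44 to 48 of the upper block left out on all arrays, Herpud1 and Manf fell in KO, and 12 of 6219 genes passed for genotype (0.193%) and 95 for diabetes (1.53%). None of the 10 chaperone genes was printed in those columns.

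**Figure D4:**
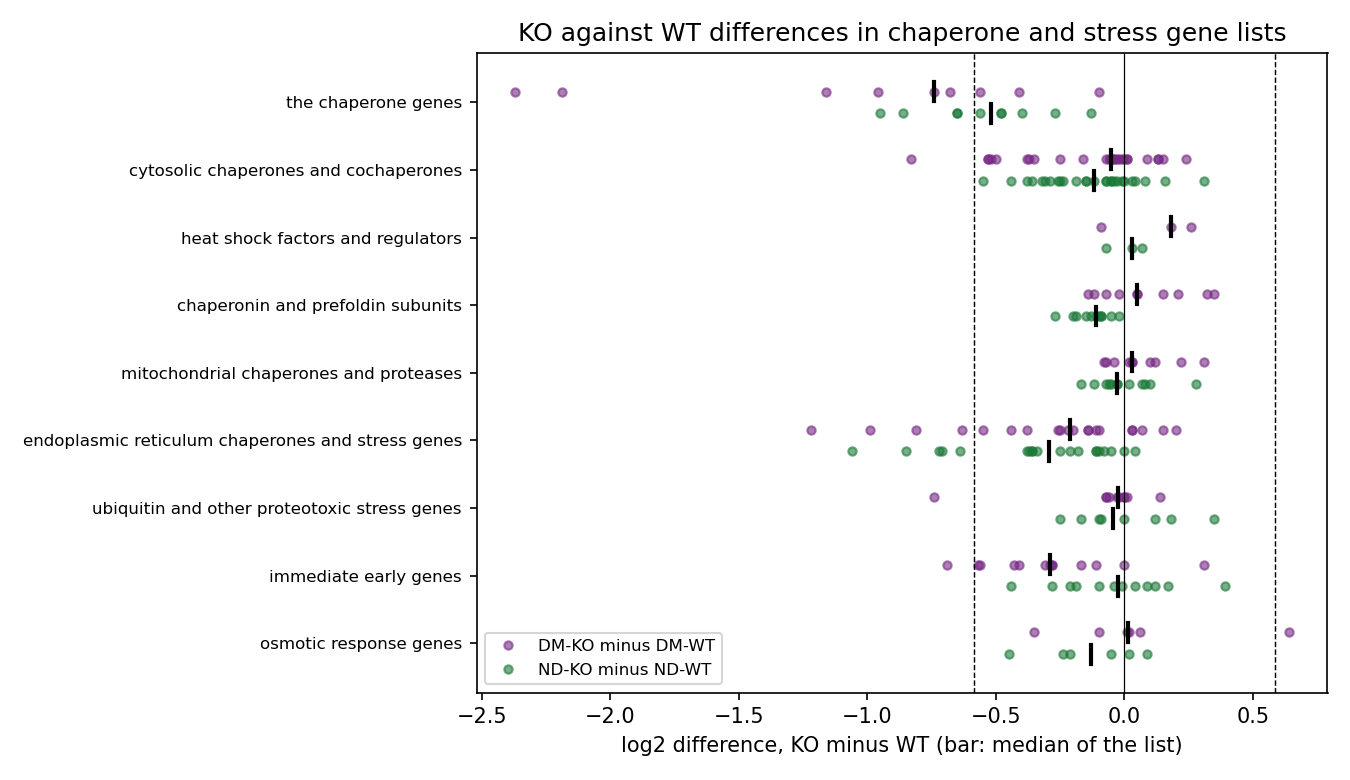
Each point is 1 gene of a list, placed by its log2 difference between KO and WT in diabetic (purple) and nondiabetic (green) mice, with a black bar at the median and dashed lines at 1.5-fold. The chaperone genes (9 with diabetes, 10 without) have medians of -0.74 and -0.52, and the endoplasmic reticulum list has medians of -0.21 and -0.30. The immediate early list has medians of -0.29 and -0.03, and the other lists have medians between -0.13 and 0.18.

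The genes whose profile over the 4 arrays was most like the mean of Hspa1a and Hspa1b were ranked by the Euclidean distance between centred log2 values, over 5905 genes with a median distance of 1.72. Noct, a clock-controlled phosphatase of NADP cofactors, came first at 0.62, with log2 levels of 6.69 on DM-KO, 7.03 on ND-KO, 8.79 on DM-WT and 7.57 on ND-WT. Pdlim1, a cytoskeletal adaptor, was at 0.66 and Pck1, the enzyme that commits to glucose synthesis, at 0.74. Tsc22d3, a glucocorticoid-induced leucine zipper gene, was at 0.82 and Gadd45g, a growth arrest gene, at 0.84. Pck1 had log2 levels of 11.56 on DM-KO, 11.98 on ND-KO, 12.79 on DM-WT and 12.63 on ND-WT, and Tsc22d3 had 8.95, 9.48, 10.10 and 10.18 on the same arrays. The other chaperone genes lay farther away than these 5, between Dnajb1 at 0.95 and Cryab at 1.71. The values were centred but not scaled, so a gene with the same order of arrays but smaller differences also lies farther away. With 4 arrays such a likeness rests on 3 differences, and the genes share the same libraries.

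Markers of cell types moved with some of these values. The cortex holds many cell types, and fewer cells of a type and less RNA for each cell cannot be told apart in it. Of the proximal tubule markers, the 11 without a poor spot or a spot in those edge columns summed to 443.3 on DM-KO, 578.0 on ND-KO, 476.2 on DM-WT and 596.2 on ND-WT in scaled intensity, the background-subtracted intensity divided by a constant of each array, and the KO minus WT medians of all 12 were 0.04 with diabetes and 0.02 without. Macrophage markers summed to 23.8 on DM-KO, 17.7 on ND-KO, 32.2 on DM-WT and 16.6 on ND-WT. That sum was highest on DM-WT, as Hspb1, Hspa1a and Hspa1b were, and as Hsp90aa1 was except with median scaling. Of the macrophage markers, 7 of 10 were measured on each KO array and 8 on each WT array, with Adgre1 and Itgam not above background on any. Thick limb and distal tubule markers, with 7 of 8 measured on ND-KO and 8 on each other array, summed to 190.3 on DM-KO, 188.6 on ND-KO, 248.5 on DM-WT and 187.6 on ND-WT. All 8 of them were lower on DM-KO, against DM-WT, with a median log2 difference of -0.16. DM-WT also had the highest sum for lymphocyte markers (10.84 on DM-KO, 10.67 on ND-KO, 12.11 on DM-WT and 9.61 on ND-WT). Red cell markers did likewise (5.67, 5.15, 6.64 and 3.74 on the same arrays), as did smooth muscle and pericyte markers (8.84, 8.22, 11.21 and 9.82). The smooth muscle sum also had both KO arrays below both WT arrays. By gene, 1 of the 4 measured on all arrays showed that order and 1 the reverse. The part of any of these marker lists in the levels of these chaperone genes was not tested.

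Collecting duct and medulla markers, with 13 or 14 of 14 measured, summed to 91.2 on DM-KO, 65.7 on ND-KO, 84.2 on DM-WT and 74.0 on ND-WT. The sum was higher on both diabetic arrays, as Cryab was, but bright genes weigh most in it. By gene, the median log2 difference was 0.15 between DM-KO and ND-KO, with 1 of 13 below 0. Between DM-WT and ND-WT it was 0.10, with 4 of 13 below 0. The bright marker Aqp2, the vasopressin-regulated water channel, had log2 levels of 10.59 on DM-KO, 9.69 on ND-KO, 10.35 on DM-WT and 10.06 on ND-WT. The part of these markers in the level of Cryab was not tested. Adipocyte markers, of which 3 of 7 were measured on DM-KO, 5 on ND-KO, 3 on DM-WT and 3 on ND-WT, with Retn and Pparg on none, summed to 42.8 on DM-KO, 78.5 on ND-KO, 55.9 on DM-WT and 63.5 on ND-WT. Adipoq and Cfd were above background on ND-KO alone, at log2 levels of 6.58 and 6.99. The part of adipocyte markers in the differences from ND-KO was not tested. Of skeletal and cardiac muscle, a tissue rich in Hspb1 and Cryab, the defining genes Acta1, Ckm, Myh2, Tnnt3 and Tnnc2 were not above background on any array, while Actc1 was measured on all 4 at log2 levels of 6.37 to 6.53 and Mylpf on all but DM-WT at 6.07 to 6.17. The muscle markers summed to 0.91 on DM-KO, 0.95 on ND-KO, 1.12 on DM-WT and 0.99 on ND-WT. Adrenal markers were measured for 0 of 4 genes on every array.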

How the data were processed

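Per the labels, renal cortex RNA of 4 groups was turned into biotinylated cRNA and put on 1 CodeLink array per group, which was scanned and read with CodeLink Expression Analysis software. The deposited scanner tables hold intensity on a linear scale, per the file headers: the mean of each spot and the median of its local background, without subtraction or scaling, and a mark for spot quality. The value table deposited for the series holds linear intensity too, equal within 0.1% to spot mean minus background divided by 1 constant per array for 99.92% of compared probes; how the authors chose that constant is not given in the sources used here. Its column medians were 0.93 for DM-KO, 0.929 for ND-KO, 0.93 for DM-WT and 0.926 for ND-WT, its genes were not centred, and the summed scaled intensities of marker lists use the same constants. No spread between samples can be had from 1 array per group, and the number of arrays limits the precision.

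Intensities were corrected with normexp (offset 50) with limma (version 3.58.1, R version 4.3.3). They were then put on the log2 scale, and the 4 arrays were quantile-normalized. Poor spots were set to missing. A gene counted as measured where its spot was marked usable, and probes of 1 gene were averaged. Platform symbols named 8923 probes and transcript accessions 286, 1 probe had several symbols and 822 had none. Diabetes and genotype were fitted additively for 6512 genes with a value on all 4 arrays and measured on at least 2, with 1 residual degree of freedom, and adjusted by Benjamini-Hochberg; the step was tested on simulated data. Promoter windows came from RefSeq.

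The members, gene lists and tests were chosen with earlier results of these data known. Named genes were the 10 members, up to 4 genes of each stress list with the largest diabetes difference, up to 3 of each marker list with the largest difference between any 2 arrays, and the 5 nearest profiles; marker genes below background are named too.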

Additional observations from a re-analysis of the deposited data

Results flagged for a closer look

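Diabetes went with less of both inducible Hsp70 transcripts in KO and with more of both in WT, each by a log2 difference of at least 0.32. The diabetes difference in KO minus that in WT was -1.41 for Hspa1a and -1.53 for Hspa1b on the log2 scale. Such an opposite pair of differences was seen for 7 of 5914 genes (0.118%). The difference was not tested, because 1 array per group leaves no degree of freedom for it.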

How the results depend on the processing

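No difference of at least 1.5-fold changed sign under the alternatives run, while Hsp90aa1 in DM-WT minus ND-WT stood at -0.02 with median scaling and Cryab in DM-KO minus DM-WT ranged between -0.11 and 0.05. Of the recomputed counts and medians, 105 stayed within 1.5 times (counts) or the repeat-spot spread (medians) and 19 did not. Of the recomputed single gene differences, 238 stayed within that spread and 28 did not. Both tallies hold settings that could scarcely move these genes. Leaving out the edge spots or the filter on dim probes changed no chaperone spot, and several counts were 0 in every setting. With 2-fold in place of 1.5-fold, the genes lower numbered 0 in DM-KO minus ND-KO, 3 in DM-KO minus DM-WT and 0 in ND-KO minus ND-WT, and those higher in DM-WT minus ND-WT numbered 0. Median scaling gave 1 gene higher and a median of 0.01 in DM-WT minus ND-WT. The series value table gave 1 gene higher in DM-WT minus ND-WT and a median of -0.74 in ND-KO minus ND-WT. Limma called 0 genes for diabetes with an offset of 16, without background correction, with the value table, with an intensity trend and without the covariate, 82 with median scaling and 95 with edge spots left out. For genotype it called 1 with an offset of 16, 14 with median scaling, 0 with the value table and 12 with edge spots left out. Both KO arrays lay below both WT arrays for 8 genes under every alternative except that 9 did with poor spots kept. Hspa1a ranged between -2.79 and -2.21 in DM-KO minus DM-WT. Keeping poor spots was an alternative chosen after seeing the data. No paired analysis was possible because each group has 1 array. Dim probes limit small folds: Bag3 stood at -0.41 in DM-KO minus DM-WT, and at -0.87 with the value table.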
